A study of Mus musculus with 10 samples.

Results

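The extracellular matrix glycoproteins and proteoglycans made by lung fibroblasts were followed through 10 genes, Npnt, Fn1, Dcn, Lum, Bgn, Sparc, Tnc, Postn, Vcan and Ogn. Every non-control probe whose gene name, or the current symbol for that name, was one of these was taken, a rule that uses no measured value. That gave 24 probes of 41174 on the array, for 10 genes of 27670 named there. All 10 genes and 19 of the 24 probes were well above background on at least 5 of the 10 arrays and were tested. RNA came from whole lung of 5 p53-null and 5 wild-type male mice, all on the C57BL/6J background and 8 weeks old, each after 30 min of aerosolized saline. The labels give the p53-null genotype without naming the allele, so whether p53 was lost in every cell by a germline deletion is not stated in the sources used here. Each array held 1 RNA sample, and the series describes the 5 of each genotype as biological replicates.

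Matrix glycoproteins are secreted proteins that link the collagen and elastin scaffold to cells. Fibronectin and nephronectin bind integrins, the adhesion receptors of the cell surface. The matricellular proteins SPARC, tenascin C and periostin modulate adhesion and are best known from developing and injured tissue, and the small leucine-rich proteoglycans decorin, lumican, biglycan and osteoglycin bind collagen fibrils. Versican is a large chondroitin sulphate proteoglycan that binds hyaluronan. In the lung these proteins are found in the interstitium of alveoli and airways.

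The result differed between probes of the same gene, so the probes themselves are shown first, each a 60-base oligonucleotide printed as the deposited files list it. Positions are on mm7, the build named in the file headers. Nephronectin had 3 probes on the minus strand of chromosome 3. Probe 1 lay at chr3:132680684-132680743, probe 2 at chr3:132681364-132681423, and probe 3 spanned chr3:132681405-132682706. Capitals mark the 19 bases that probes 2 and 3 share, while probe 1 shares no such stretch with either.
Npnt probe 1: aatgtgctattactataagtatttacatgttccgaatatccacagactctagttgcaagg
Npnt probe 2: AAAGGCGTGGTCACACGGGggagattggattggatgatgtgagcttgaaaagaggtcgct
Npnt probe 3: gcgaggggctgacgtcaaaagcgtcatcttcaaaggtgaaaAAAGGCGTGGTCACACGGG

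Fibronectin (Fn1) also had 3 probes, on the minus strand of chromosome 1, spanning 71832689 to 71834926 for probe 1, 71839394 to 71839453 for probe 2 and 71869155 to 71869913 for probe 3. They are shown because their signals did not move together.
Fn1 probe 1: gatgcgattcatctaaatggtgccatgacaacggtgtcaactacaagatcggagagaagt
Fn1 probe 2: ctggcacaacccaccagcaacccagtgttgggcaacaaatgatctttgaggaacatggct
Fn1 probe 3: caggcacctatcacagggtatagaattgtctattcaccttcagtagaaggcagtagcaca

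The remaining sequences are those behind the other genes that were lower in p53-null lung, with the second Sparc probe beside the first. Sparc probe 1 spanned chr11:55352704-55355361 and probe 2 lay at chr11:55351268-55351327, both on the minus strand. Tnc probe 1 lay at chr4:63394034-63394094 on the minus strand, Postn probe 1 at chr3:54519770-54519829 and Bgn probe 1 at chrX:68879864-68879923, both on the plus strand.
Sparc probe 1: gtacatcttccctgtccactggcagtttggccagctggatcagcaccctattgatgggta
Sparc probe 2: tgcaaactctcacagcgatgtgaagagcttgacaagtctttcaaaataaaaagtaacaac
Tnc probe 1: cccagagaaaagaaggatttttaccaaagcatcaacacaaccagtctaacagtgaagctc
Postn probe 1: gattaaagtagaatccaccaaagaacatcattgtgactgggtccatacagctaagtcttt
Bgn probe 1: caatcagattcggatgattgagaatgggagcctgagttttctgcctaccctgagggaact

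Of the 10 genes, 5 were lower and none was higher in p53-null lung (limma, Benjamini-Hochberg adjusted p under 0.05 over all genes tested), and none was higher at an unadjusted p under 0.05 either. The 5 were nephronectin, tenascin C, SPARC, periostin and biglycan. All 10 differences were below 0, against 43.7% of all 21115 genes tested. Their median was -0.42 on the log2 scale, against 0.05 for all genes. Among the 19 tested probes of the 10 genes, 16 differences were below 0. Over all genes 2.89% were lower and 4.59% higher. At the level of probes, 5 of the 19 tested were lower, against 3.1% of all probes. The p53-null and wild-type arrays did not overlap for the same 5 genes, while 3.88% of all genes had every p53-null array below every wild-type array. RNA from a whole organ does not separate fewer cells of a type from less RNA per cell, and these cannot be told apart here. All values below are log2 signals relative to the 75th percentile of each array. Differences subtract wild type from p53-null and carry the SE of the limma fit (n = 5 per group), unless stated. Each gene is represented by its probe 1, the brightest by its mean over all 10 arrays, and levels of different probes are not comparable.

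**Figure D1:**
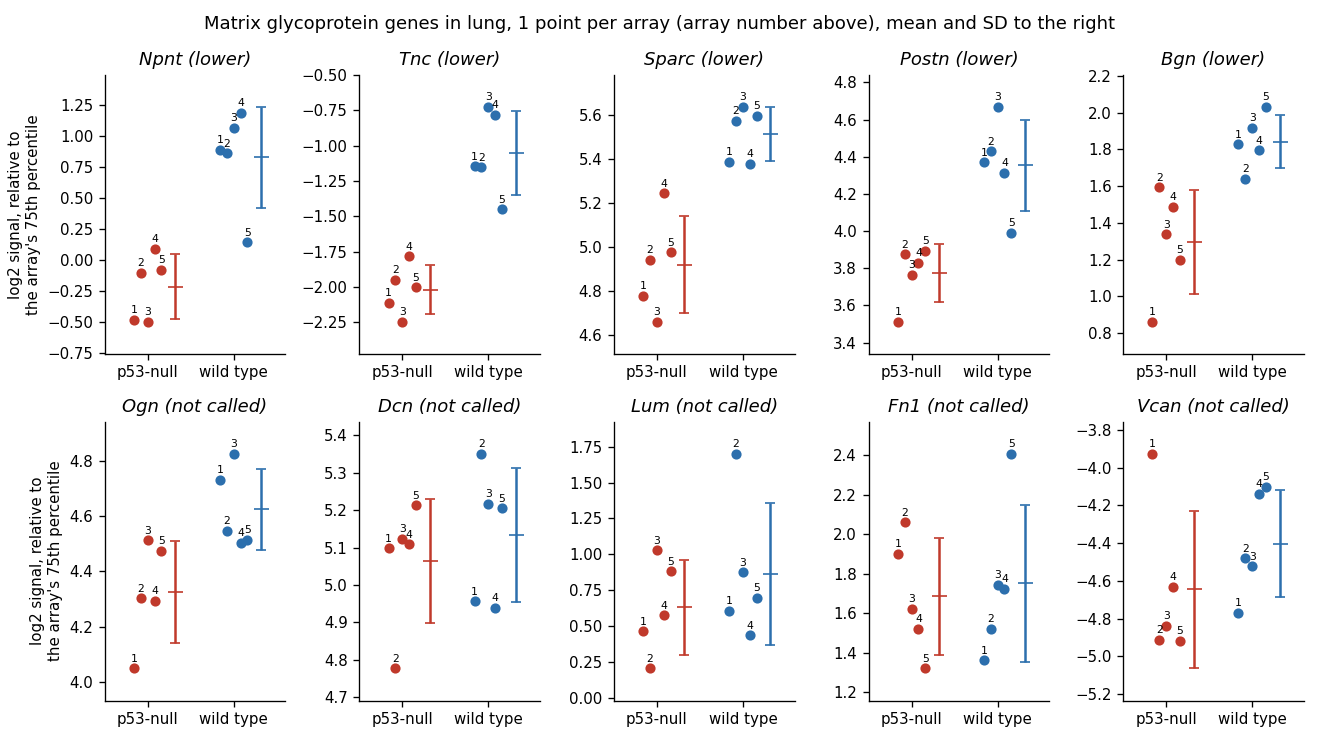
Log2 signal of the 10 genes relative to each array's 75th percentile, 1 panel per gene with its own scale, for p53-null arrays (left) and wild-type arrays (right). Points are arrays with their numbers, and bars give the group mean and SD. The groups do not overlap for Npnt, Tnc, Sparc, Postn and Bgn, and do overlap for the other 5 genes.

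The share of spots well above background ran from 71.4% to 84.0%, no spot of any of the 24 probes was saturated, and precision is limited by having 5 arrays per genotype. Wild-type array 3, the only array of its scan day, had 719 outlier spots, against 51 to 137 on the other arrays. The Trp53 probe with 10 spots was lower, at -1.28 ± 0.16 (limma adjusted p = 0.00589 over all probes), and a second differed by 0.31 ± 0.28 (adjusted p = 0.504). Where the deletion lies is not stated in the sources used here, so neither probe is known to check it. Wild-type array 5 stood apart from the other wild-type arrays. The deviation of its signals from the probe means correlated with probe GC content at 0.33. On wild-type arrays 1, 3 and 4 this correlation was -0.29, -0.21 and -0.29, and on wild-type array 2 it was 0.01. Over the p53-null arrays it ran from -0.0005 to 0.19, so the GC trend also differed between the groups. Without wild-type array 5, 14.3% of genes were lower. Its part in each result is given with the gene. Genes of skeletal muscle were high on p53-null arrays 4 and 5 and on wild-type array 2, and none of the 7 was called (limma, 0 at an unadjusted p under 0.05).

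Nephronectin, an integrin ligand of basement membranes, was lower by -1.04 ± 0.20 (limma adjusted p = 0.0235), so that p53-null lung held 48.5% of the wild-type signal. Npnt probe 1 read -0.48, -0.11, -0.50, 0.09 and -0.08 on the p53-null arrays, and 0.89, 0.86, 1.06, 1.18 and 0.14 on the wild-type arrays. Wild-type arrays 1 to 4 lay well above every p53-null array, and wild-type array 5 lay just above the highest of them. Without wild-type array 5 the difference was -1.21 (adjusted p = 0.000859). The call held with wild-type array 1, wild-type array 5 or p53-null array 4 left out, and was lost, at adjusted p up to 0.0660, when any other single array was left out.

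The other Npnt probes gave smaller differences. Probe 2 read -0.54, -0.31, -0.72, -0.14 and -0.42 on the p53-null arrays, and -0.15, -0.22, -0.03, -0.13 and 0.27 on the wild-type arrays, a difference of -0.37 ± 0.13 (limma adjusted p = 0.104 over all probes). Probe 3 read -1.01, -0.76, -1.11, -0.65 and -1.04 on the p53-null arrays, and -0.68, -0.75, -0.68, -0.69 and -0.16 on the wild-type arrays, a difference of -0.32 ± 0.14 (adjusted p = 0.164). For both probes the groups overlapped and wild-type array 5 was the highest of all 10 arrays, whereas for probe 1 it was the lowest wild-type array. Probes 2 and 3, which share 19 bases, ran side by side. On wild-type array 5 they rose above the other wild-type arrays, while probe 1 fell below those arrays. The gap between probe 1 and the other probes on each array is given below. Probe 1 is listed under a different Npnt transcript record from probes 2 and 3. Whether the probes read different transcripts was not tested. With the GC trend of each array's probes removed, probe 2 differed by -0.53 and probe 3 by -0.52, both past the threshold, and Npnt as a gene by -0.98 (adjusted p = 0.0403).

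The gap between Npnt probes was compared directly, as the log2 signal of one minus that of another on each array. Probe 1 minus probe 2 was 0.06, 0.20, 0.22, 0.22 and 0.33 on the p53-null arrays, and 1.04, 1.08, 1.09, 1.31 and -0.13 on the wild-type arrays. This gap was smaller in p53-null lung by -0.67 (two-sided exact permutation p = 0.0476, 0.0667 adjusted over the 7 probe pairs compared within Npnt, Fn1 and Sparc), which does not pass the threshold. Probe 1 minus probe 3 differed by -0.72 (exact p = 0.0476, adjusted 0.0667) and probe 2 minus probe 3 by -0.05 (exact p = 0.373). Without wild-type array 5, chosen for leaving out after its values were seen, the gap for probes 1 and 2 differed by -0.92 (exact p = 0.0159, the smallest that 5 against 4 arrays allow). With the GC trend removed it differed by -0.45. Probe 1 had 35% GC, probe 2 51.7% and probe 3 55%.

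**Figure D2:**
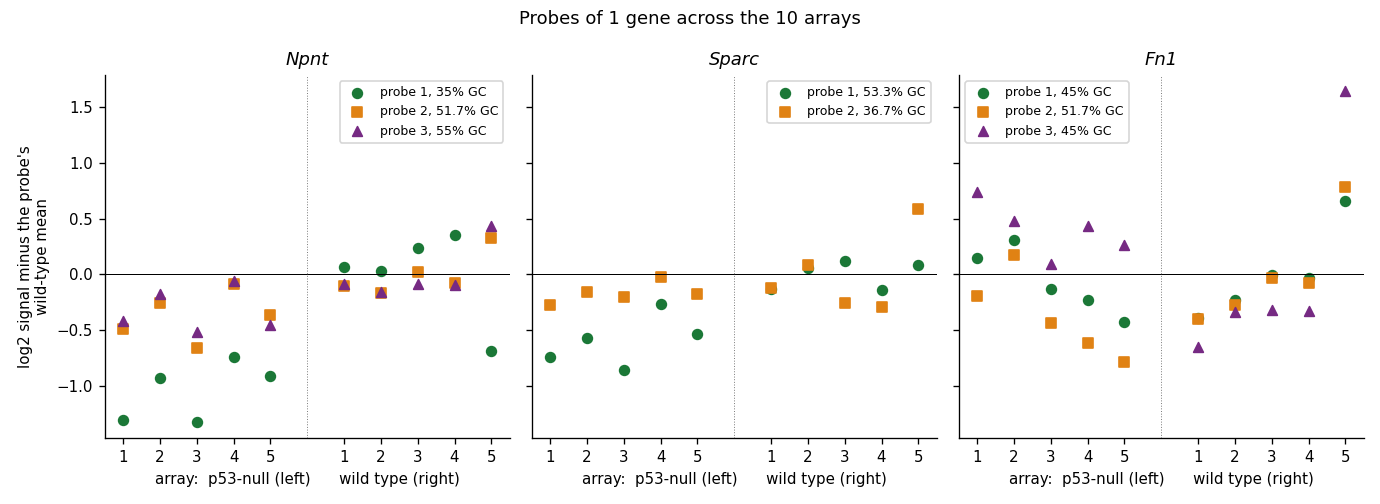
Log2 signal of each probe of Npnt, Sparc and Fn1 minus that probe's wild-type mean, on the 5 p53-null arrays (left) and the 5 wild-type arrays (right). On wild-type array 5, Npnt probe 1 lies at the bottom of the wild-type group while Npnt probes 2 and 3, Sparc probe 2 and all 3 Fn1 probes lie at the top.

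Tenascin C, a matricellular protein that modulates adhesion to fibronectin, was lower by -0.97 ± 0.15 (limma adjusted p = 0.0133), at 51.2% of the wild-type signal. Tnc probe 1 read -2.11, -1.95, -2.24, -1.78 and -2.00 on the p53-null arrays, and -1.15, -1.15, -0.73, -0.78 and -1.45 on the wild-type arrays. The groups were separated by a gap, with wild-type array 5 the wild-type array nearest to the p53-null group. Leaving out any 1 of the 10 arrays kept the call, with differences between -1.07 and -0.89 and adjusted p between 0.000930 and 0.0434. The other 4 lower genes each lost theirs in at least 6 of those fits. Probe 2 was well above background on 3 p53-null and 2 wild-type arrays and differed by 0.62 ± 0.40 (adjusted p = 0.348), and probe 3, above it on 3 arrays of each group, differed by -0.72 ± 0.37 (adjusted p = 0.239). Averaging all 3 probes gave -0.36 (adjusted p = 0.407).

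SPARC, a collagen-binding matricellular protein also known as osteonectin, was lower by -0.60 ± 0.12 (limma adjusted p = 0.0239), at 66.2% of the wild-type signal. Sparc probe 1 read 4.78, 4.94, 4.66, 5.24 and 4.98 on the p53-null arrays, and 5.39, 5.58, 5.64, 5.38 and 5.60 on the wild-type arrays. Here wild-type array 5 lay among the other wild-type arrays, and the narrowest gap was to p53-null array 4. The call held with wild-type array 1, 4 or 5 or p53-null array 4 left out, and was lost, at adjusted p up to 0.0653, when any other single array was left out. Sparc lies on the same chromosome as Trp53, its probe 1 14.3 Mb from the Trp53 probe printed in 10 spots.

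The second Sparc probe did not separate the groups. Probes 1 and 2 averaged 4.92 and 4.93 over the p53-null arrays, and 5.52 and 5.09 over the wild-type arrays. Probe 1 thus stands for the gene only through its wild-type signal, and the call of Sparc as a gene depends on that choice. Probe 2 read 4.82, 4.93, 4.89, 5.07 and 4.92 on the p53-null arrays, and 4.97, 5.18, 4.83, 4.80 and 5.67 on the wild-type arrays, a difference of -0.16 ± 0.16 (limma adjusted p = 0.544 over all probes). Wild-type array 5 was the highest, wild-type arrays 1 and 3 lay within the p53-null range and wild-type array 4 lay just below it. The gap, probe 1 minus probe 2, differed by -0.43 (exact permutation p = 0.0397, 0.0667 adjusted over the 7 pairs), by -0.56 without wild-type array 5 and by -0.65 with the GC trend removed. The average of both probes differed by -0.38 (limma adjusted p = 0.0842).

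Periostin, a matricellular protein that binds collagen and tenascin C, was lower by -0.58 ± 0.13 (limma adjusted p = 0.0327), at 67.0% of the wild-type signal. Postn probe 1 read 3.51, 3.87, 3.76, 3.83 and 3.89 on the p53-null arrays, and 4.37, 4.43, 4.67, 4.31 and 3.99 on the wild-type arrays. Wild-type array 5 lay close above the p53-null group and the other 4 wild-type arrays well above it. Of the 10 single-array omissions only that of wild-type array 5 kept the call (difference -0.67, adjusted p = 0.00240), and the other 9 ended it, at adjusted p up to 0.0815. The call was also lost with the GC trend removed (-0.57, adjusted p = 0.0813), median scaling (0.0603) and no filter on dim probes (0.0595). The mean of both Postn probes differed by -0.47 (adjusted p = 0.445). A second Postn probe, listed in the files under an older clone name, was well above background on 7 arrays and differed by -0.37 ± 0.69 (adjusted p = 0.776).

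Biglycan, a small leucine-rich proteoglycan with chondroitin or dermatan sulphate chains, was lower by -0.55 ± 0.14 (limma adjusted p = 0.0467), at 68.5% of the wild-type signal. Bgn probe 1 read 0.86, 1.59, 1.34, 1.49 and 1.20 on the p53-null arrays, and 1.83, 1.64, 1.92, 1.80 and 2.03 on the wild-type arrays. The groups nearly met, at p53-null array 2 and wild-type array 2, and wild-type array 5 was the highest. This call too held only in the fit without wild-type array 5 (difference -0.50, adjusted p = 0.0305), and was lost, at adjusted p up to 0.117, when any other single array was left out. The mean of both Bgn probes differed by -0.22 (adjusted p = 0.487). The call was also lost with quantile scaling (-0.52, adjusted p = 0.0523), median scaling (0.0527), slide as a random block (0.0656) and no filter on dim probes (0.0803). A dim second Bgn probe, well above background on 8 arrays, differed by 0.11 ± 0.30 (adjusted p = 0.852), and by -0.06 under quantile scaling and -0.05 with no scaling.

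**Figure D3:**
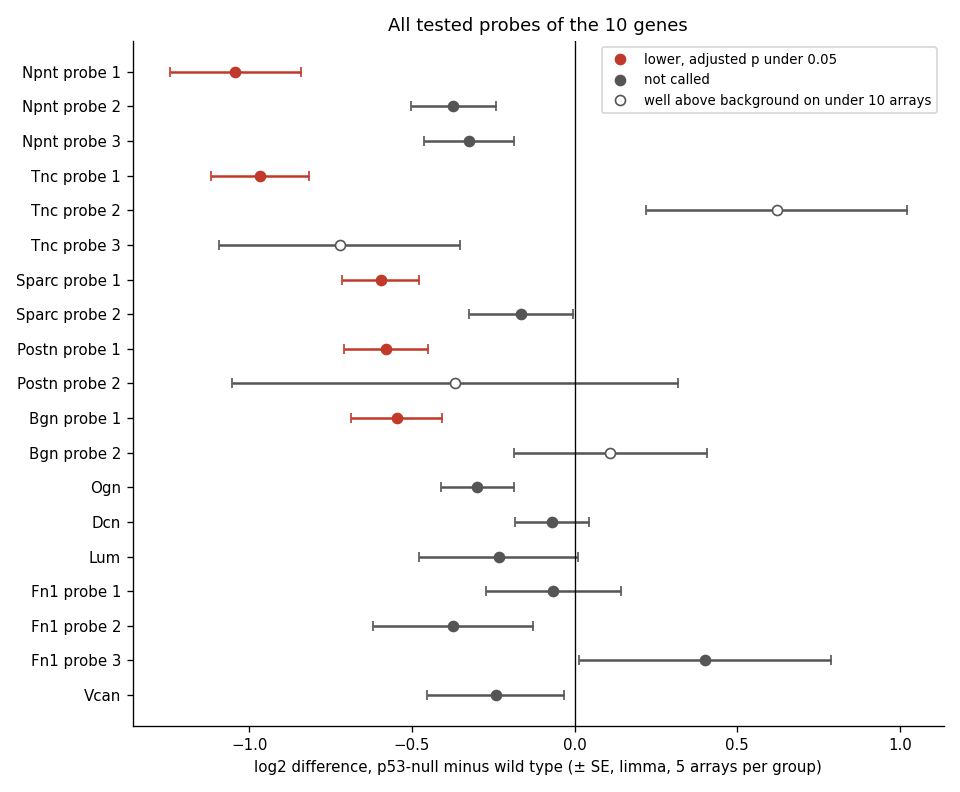
Log2 difference, p53-null minus wild type, for each of the 19 tested probes with its SE. The 5 probes in red passed the threshold, each the brightest probe of its gene by its mean over all 10 arrays. Open points mark probes well above background on fewer than 10 arrays.

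The other small leucine-rich proteoglycans of the set did not pass the threshold. Osteoglycin read 4.05, 4.30, 4.51, 4.29 and 4.47 on the p53-null arrays, and 4.73, 4.55, 4.83, 4.50 and 4.51 on the wild-type arrays, a difference of -0.30 ± 0.11 (limma adjusted p = 0.115). The groups overlapped by little, with p53-null array 3 level with wild-type arrays 4 and 5. Lumican, which regulates collagen fibril spacing, read 0.46, 0.20, 1.03, 0.57 and 0.88 on the p53-null arrays, and 0.61, 1.70, 0.87, 0.43 and 0.70 on the wild-type arrays, a difference of -0.23 ± 0.25 (adjusted p = 0.580). Its groups overlapped, with wild-type array 2 above every p53-null array and p53-null array 2 below every wild-type array.

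Decorin, the collagen-binding proteoglycan most closely related to biglycan, read 5.10, 4.78, 5.12, 5.11 and 5.21 on the p53-null arrays, and 4.96, 5.35, 5.22, 4.94 and 5.20 on the wild-type arrays. The difference was -0.07 ± 0.11 (limma adjusted p = 0.734), and the p53-null values other than array 2 lay within the wild-type range. A second Dcn probe did not rise well above background on a single array.

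Fibronectin, the dimeric glycoprotein that binds collagen and integrins, gave a different value with each probe. Fn1 probe 1, printed in 10 spots, read 1.90, 2.06, 1.62, 1.52 and 1.32 on the p53-null arrays, and 1.36, 1.52, 1.74, 1.72 and 2.41 on the wild-type arrays, a difference of -0.07 ± 0.21 (limma adjusted p = 0.872). Probe 2 read -0.79, -0.42, -1.03, -1.21 and -1.38 on the p53-null arrays, and -0.99, -0.87, -0.63, -0.67 and 0.19 on the wild-type arrays, a difference of -0.37 ± 0.25 (adjusted p = 0.357 over all probes). Probe 3 read -3.58, -3.84, -4.22, -3.89 and -4.06 on the p53-null arrays, and -4.97, -4.66, -4.64, -4.65 and -2.68 on the wild-type arrays, a difference of 0.40 ± 0.39 (adjusted p = 0.544). On all 3 probes wild-type array 5 was the highest of the 10. For probe 3 the other 4 wild-type arrays lay below every p53-null array. Without wild-type array 5, left out after its values were seen, that probe was higher in p53-null lung by 0.81, past the threshold. In that fit 16.4% of all probes were higher, against 4% with all arrays. The gene's difference from probe 1 turned to 0.10 there.

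The gaps between Fn1 probes also differed between groups without passing the threshold. Probe 1 minus probe 2 ran from 2.48 to 2.73 over the p53-null arrays, against 2.22 to 2.39 over the wild-type arrays. The gap was wider by 0.31 with no overlap (exact permutation p = 0.00794, the smallest that 5 against 5 arrays allow, 0.0556 adjusted over the 7 pairs). Even that smallest p could not pass after adjustment over 7 pairs unless other pairs also had small p-values. Probe 2 minus probe 3 differed by -0.77 (exact p = 0.0238, adjusted 0.0667) and probe 1 minus probe 3 by -0.47 (exact p = 0.111, adjusted 0.130). Probes 1 and 3 both had 45% GC.

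Versican was read by 1 probe well above background on all arrays, listed in the files under the older name Cspg2. It read -3.93, -4.91, -4.84, -4.63 and -4.92 on the p53-null arrays, and -4.77, -4.48, -4.52, -4.14 and -4.10 on the wild-type arrays, a difference of -0.24 ± 0.21 (limma adjusted p = 0.491). Array 1 of the p53-null group was the highest of all 10 arrays and the other 4 p53-null arrays were among the 5 lowest. The other 4 Vcan probes stayed below that mark on every array and give no fold.

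The number of genes called among the 10 varied with the arrays left out. It was 5 without wild-type array 5, where 14.3% of all genes were lower, and 3 without p53-null array 4 (0.673% of all genes lower) or wild-type array 1 (1.5%). It was 2 without wild-type array 4 (0.687%). Tnc alone was called without p53-null array 1 (0.44%), 2 (0.639%), 3 (0.246%) or 5 (0.45%) and without wild-type array 2 (0.549%) or 3 (0.511%). The share of all genes called lower thus fell from its 2.89% with all arrays in the same 9 fits in which the count among the 10 fell. With p53-null arrays 4 and 5 and wild-type array 2 all left out, none of the 10 was called, against 5 at an unadjusted p under 0.05 (limma), in a fit that called 0.0284% of all genes lower, and the differences of the 5 genes ran from -1.18 for Npnt to -0.62 for Postn. Averaged over the 10 genes, the deviation from each gene's mean ran from -0.30 to -0.14 over the p53-null arrays, against 0.11 to 0.36 over the wild-type arrays.

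**Figure D4:**
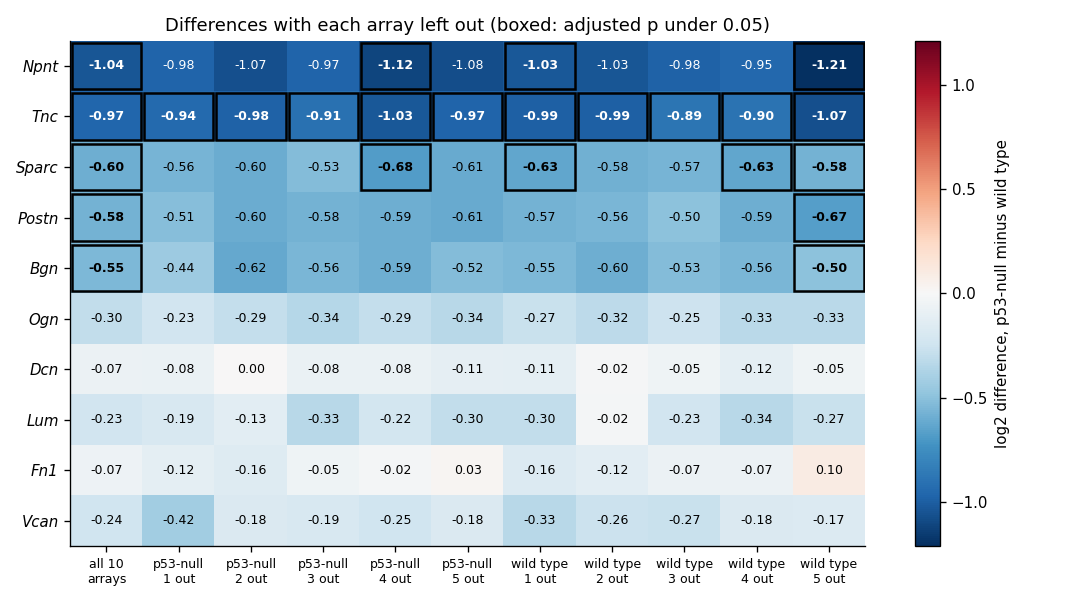
Log2 difference, p53-null minus wild type, of the 10 genes in the fit of all arrays and with each array omitted in turn. Boxed values passed an adjusted p of 0.05. Tnc passed in every column, and Postn and Bgn passed in the fit of all arrays and in that without wild-type array 5.

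Slides were also compared. Slides 2 and 3 held only p53-null arrays and slides 1, 4 and 6 only wild-type arrays, so slide and genotype cannot be told apart there. Arrays in the lower slide number range, 4 p53-null and 3 wild-type, gave differences of -0.87 for Npnt, -0.79 for Tnc, -0.61 for Sparc, -0.51 for Postn and -0.61 for Bgn. Arrays in the higher range, 1 p53-null and 2 wild-type, gave -1.23 for Npnt, -1.19 for Tnc, -0.57 for Sparc, -0.62 for Postn and -0.26 for Bgn. With the range as a block Npnt (-0.97), Tnc (-0.90) and Sparc (-0.60) passed the threshold (limma adjusted p from 0.0202 to 0.0444), while Postn (-0.54) and Bgn (-0.51) did not, against 1.25% of all genes lower. With each slide as a fixed block, where slide 5 with 1 array of each group carries the comparison, the differences were -1.29 for Npnt, -1.17 for Tnc, -0.44 for both Sparc and Postn and -0.20 for Bgn, none past the threshold (adjusted p from 0.776 to 0.889). That fit called 0% of all genes lower, and the higher range and slide 5 each rest on 1 p53-null array.

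Fibroblasts themselves were examined through 12 marker genes outside the set. Of these, 3 were lower and 0 higher (limma, 0 higher at an unadjusted p under 0.05), with a median of -0.18. The differences of 8 of the 12 were below 0 and those of the others were not. Collagen genes Col3a1 (-0.94 ± 0.12) and Col1a2 (-0.82 ± 0.11) were lower, as was the growth factor receptor gene Pdgfra (-0.50 ± 0.13, adjusted p = 0.0495). Second probes of Col3a1 and Pdgfra differed by -0.52 ± 0.32 and -0.01 ± 0.14, neither past the threshold over all probes. The first Pdgfra probe did not pass it over all probes either (limma adjusted p = 0.0501). Its groups overlapped, with wild-type array 5 at 2.77 and the highest p53-null array at 2.82. The level of the list, as the mean log2 signal of its genes, ran from 2.63 to 2.80 over the p53-null arrays, against 2.78 to 3.27 over the wild-type arrays. All 12 markers were well above background on enough arrays to be tested, but whole-lung RNA does not assign the 10 genes to a cell type.

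Markers of other lung cells gave these values beside the 10 genes. None of 7 alveolar type 1 and 7 alveolar type 2 markers was called (limma, 0 at an unadjusted p under 0.05), with medians of -0.05 and 0.06. Of 7 endothelial markers 1 was lower, Plvap at -0.40 ± 0.09, and of 7 smooth muscle and 5 mesothelial markers none was called, against 1 in each at an unadjusted p under 0.05. Markers of neutrophils and lymphocytes were higher. All 6 neutrophil markers were higher, with a median of 2.02 and S100a9 at 2.42 ± 0.28, 5 of 6 B cell markers were higher with a median of 1.26, and 4 of 7 T and NK cell markers with a median of 0.65. Of 6 macrophage markers 1 was lower, Marco at -0.77 ± 0.17, and 1 higher, Csf1r at 0.56 ± 0.14, and the groups overlapped for both. Among the other Csf1r probes, 1 was also higher, by 0.51 ± 0.12 (limma adjusted p = 0.0373 over all probes). Another differed by -0.11 ± 0.18 (adjusted p = 0.736). Of 5 platelet markers 1 was higher, Itga2b at 1.28 ± 0.27, against 4 at an unadjusted p under 0.05, and their median was 0.95. Of 5 adipocyte markers 1 was higher, Lep at 2.03 ± 0.46, with a median of 0.18. The dim Lep probe met the well-above-background mark on 4 arrays of the p53-null group and 1 of the wild-type group. The size of the Lep difference is therefore uncertain. Of 3 chondrocyte markers tested 1 was lower, Col2a1 at -1.06 ± 0.22, whose second probe differed by 0.17 ± 0.19. None of 5 squamous epithelial markers was called (limma, 0 at an unadjusted p under 0.05).

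The mean log2 signal of the neutrophil list ran from -0.33 to 0.61 over the p53-null arrays, against -2.38 to -1.26 over the wild-type arrays. For B cells it ran from -1.04 to 0.0065 over the p53-null arrays, against -3.15 to -1.55 over the wild-type arrays, and for T and NK cells from -1.12 to -0.58 over the p53-null arrays, against -2.04 to -1.25 over the wild-type arrays. Every gene of the 3 lists was tested, and no list overlapped between groups. The part of these cells in the lower signals of the matrix genes was not tested.

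Of 12 tested small leucine-rich proteoglycans outside the set, 1 was lower, chondroadherin (Chad, -0.56 ± 0.12), and 1 higher, podocan-like 1 (Podnl1, 0.90 ± 0.16), with a median of -0.17. Among 19 relatives of SPARC and tenascin C and other matricellular genes, 1 was lower, Fstl1, which encodes the secreted SPARC relative follistatin-like 1 (-0.45 ± 0.11), and 0 were higher (limma, 2 at an unadjusted p under 0.05), with a median of -0.04. Of 9 lecticans, link proteins and hyaluronan synthases, the relatives and partners of versican, 0 were lower (1 at an unadjusted p under 0.05) and 1 was higher, brevican (Bcan, 0.67), with a median of -0.03.

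Basement membrane genes and nephronectin partners had 3 of 14 lower and 0 higher (limma, 9 lower and 0 higher at an unadjusted p under 0.05), with a median of -0.29. These were the laminin chains Lamc1 (-0.55 ± 0.08, adjusted p = 0.0134) and Lama3 (-0.57 ± 0.14), and nidogen 1, the laminin-binding linker (Nid1, -0.54 ± 0.11). A second Lama3 probe differed by 0.49 ± 0.33 (adjusted p = 0.374 over all probes). Itga8, the integrin chain of the nephronectin receptor, named after its values were seen, differed by -0.06 ± 0.08 (adjusted p = 0.681). The mean log2 signal of the list ran from 1.05 to 1.31 over the p53-null arrays, against 1.43 to 1.63 over the wild-type arrays, with no overlap.

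Receptors of the 10 proteins had 1 of 16 lower, the fibronectin receptor chain Itga5 (-0.42), and 0 higher (limma, 1 at an unadjusted p under 0.05). Genes that build glycosaminoglycan chains had 0 of 16 lower (4 at an unadjusted p under 0.05) and 2 higher, the linker enzyme B3gat3 (0.40 ± 0.07) and the chondroitin sulphotransferase Chst3 (0.68 ± 0.16). Of the other B3gat3 probes, 1 was also higher, by 0.42 ± 0.09 (adjusted p = 0.0303 over all probes), and 1 differed by 0.10 ± 0.21 (adjusted p = 0.788). Of 11 proteases that cut these proteins, 2 were lower and 0 higher (limma, 5 lower and 0 higher at an unadjusted p under 0.05), the versican-cleaving Adamts9 (-0.60 ± 0.14) and stromelysin 1 (Mmp3, -0.86 ± 0.17), with a median of -0.42. Of the other Adamts9 probes, 1 was also lower, at -0.66 ± 0.16 (adjusted p = 0.0392 over all probes), and 1 differed by -0.15 ± 0.17 (adjusted p = 0.601).

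**Figure D5:**
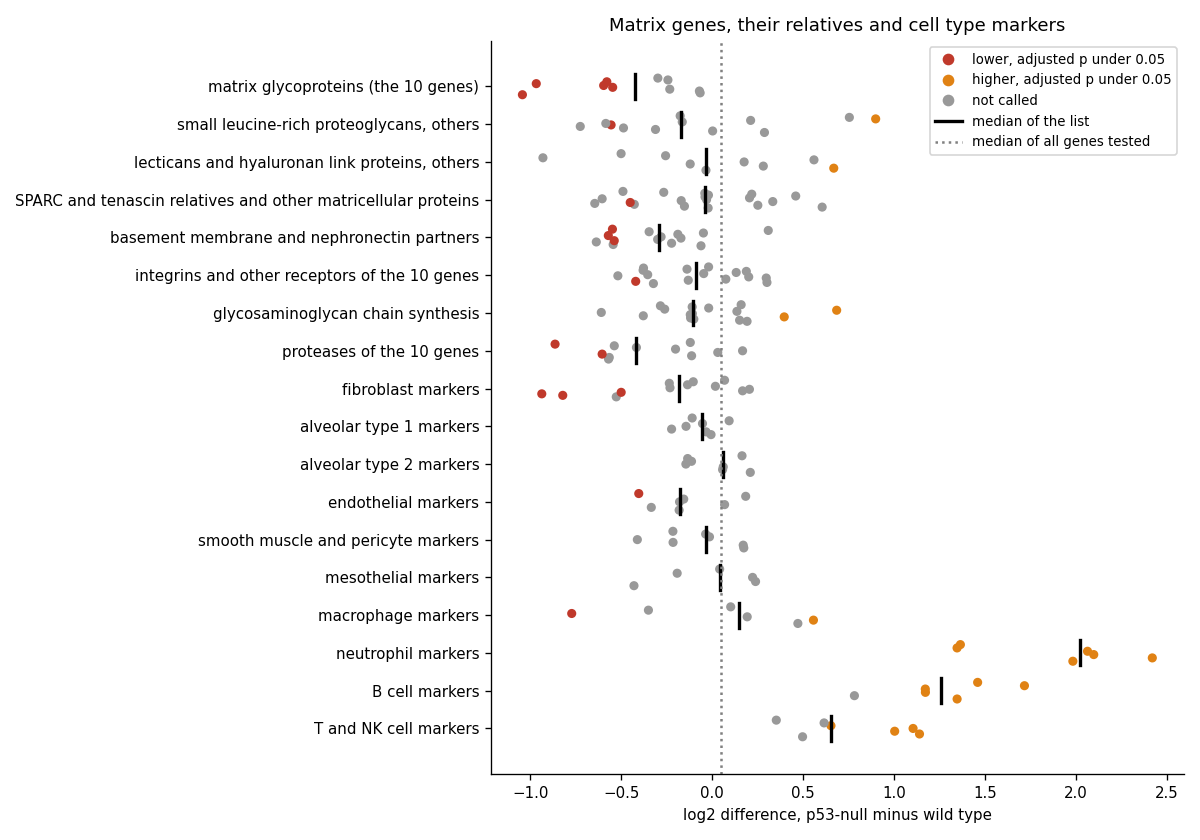
Log2 difference, p53-null minus wild type, of each tested gene (points) in the lists named on the left, with the median of each list as a bar and that of all genes as a dotted line. The 10 matrix genes all lie below 0, as do 13 of 14 basement membrane genes, while every marker of neutrophils and lymphocytes lies above 0.

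RefSeq promoter windows on GRCm38.p6, each 250 bases before to 50 after a transcription start, were at hand for 7 of the 10 genes, with 10 windows in all. They are shown for 3 genes that were lower, with the letters a search found in capitals. GGGCGG, read on both strands, occurred in 5 of the 10 windows, of Bgn, Npnt, Tnc and Vcan, and in 35.7% of all 32851 mouse windows. TATAAA occurred on either strand in 4 of the 10 windows, of Ogn, Postn and Tnc, and in 13.6% of all windows. The Tnc windows overlap each other, and the Npnt window that is not printed held no GGGCGG. The half-site consensus of p53 binding occurred in 1 of the 10 windows, that of Sparc, and in 8.36% of all windows. These are matches of letters only, and no binding was measured.
Npnt promoter, chr3:132950242-132950541, minus strand: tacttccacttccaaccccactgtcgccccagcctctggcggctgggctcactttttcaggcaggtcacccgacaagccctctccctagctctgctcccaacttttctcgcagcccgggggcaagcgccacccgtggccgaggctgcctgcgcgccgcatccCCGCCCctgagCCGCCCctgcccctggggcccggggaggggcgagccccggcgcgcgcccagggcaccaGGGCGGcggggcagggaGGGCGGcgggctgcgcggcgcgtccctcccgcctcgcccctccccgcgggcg
Sparc promoter, chr11:55420031-55420330, minus strand: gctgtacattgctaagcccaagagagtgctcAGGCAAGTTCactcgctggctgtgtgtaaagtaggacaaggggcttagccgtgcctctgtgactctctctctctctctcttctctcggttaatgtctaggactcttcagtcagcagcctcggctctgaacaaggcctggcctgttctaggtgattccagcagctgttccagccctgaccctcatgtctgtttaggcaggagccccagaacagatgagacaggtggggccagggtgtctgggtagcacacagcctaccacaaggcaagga
Tnc promoter, chr4:64046887-64047186, minus strand: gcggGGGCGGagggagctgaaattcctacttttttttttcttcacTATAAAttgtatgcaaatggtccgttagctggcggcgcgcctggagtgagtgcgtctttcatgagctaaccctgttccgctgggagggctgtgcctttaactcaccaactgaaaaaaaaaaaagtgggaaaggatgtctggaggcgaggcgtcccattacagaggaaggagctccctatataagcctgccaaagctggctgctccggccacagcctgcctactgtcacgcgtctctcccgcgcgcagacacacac
In the Npnt window the capitals mark 4 matches of GGGCGG or its reverse complement, in the Sparc window 1 match of the p53 consensus, and in the Tnc window 1 GGGCGG and 1 TATAAA.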

How the data were processed

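Whole-lung total RNA was labelled with Cy3 and read on 1-colour Agilent arrays, 1 per mouse, per the labels' protocols. The deposited intensity values are Agilent Feature Extraction 9.5 signals (per the submitters' processing notes), background-subtracted and detrended per the file headers, and the authors' value table equals them, with a largest difference of 0, so its scale is linear, not centred and not normalized between arrays. Medians of its columns lay between 250.0 and 451.6.

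Each log2 intensity was set relative to the 75th percentile of 43379 non-control spots of each array. Outlier spots were dropped, spots of a probe averaged, and the probe with the highest mean stood for its gene. Features were fitted if at least 5 of 10 arrays had them well above background, with limma 3.58.1 (lmFit, eBayes) in R 4.3.3 at an adjusted p of 0.05. Symbols came from file names, accessions and synonyms in a RefSeq table of GRCm38.p6 used for names and promoter windows; probe positions are those of the files. The code was tested on simulated data. Gaps between probes were compared by two-sided exact permutation.

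Up to 4 called genes of each list could be named, in order of p, or 2 in a list with no call, and only those that bear on the 10 genes are printed. The members, lists and tests were chosen with earlier results of these data known. The fits were repeated with other background correction, scaling, filters, probe rules, thresholds and variance models, with array weights, with the GC trend removed, with slide, slide number range, scan day or replicate number as a block, and with each array omitted. Same-numbered arrays did not deviate together (correlations from -0.22 to 0.00 over 20606 genes), so the numbers were not taken as pairs.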

Additional observations from a re-analysis of the deposited data

Results flagged for a closer look

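In 84 groups of 5 arrays examined (probes and marker lists), 9 had an extreme array whose gap to the nearest other exceeded Dixon's 95% limit of 0.71 of the range, where chance gives about 1 in 20. Npnt probe 3 on wild-type array 5 read -0.16, against -0.68 for the nearest wild-type array, and Fn1 probe 3 on the same array read -2.68, against -4.64. Dcn probe 1 on p53-null array 2 read 4.78, against 5.10 for the nearest p53-null array. Vcan probe 1 on p53-null array 1 read -3.93, against -4.63.

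Marker lists gave 5 more, as mean log2 signals. Endothelial markers on wild-type array 5 were at 3.57, against 3.72 for the nearest wild-type array. B cell markers on p53-null array 1 were at 0.0065, against -0.78. Squamous epithelial markers on p53-null array 5 were at 1.30, against -3.97, and on wild-type array 2 at 2.55, against -3.76. Skeletal muscle markers on wild-type array 2 were at 2.86, against -2.07.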

How the results depend on the processing

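The median difference of the 10 genes stayed below 0 in all 29 alternative fits, from -0.58 to -0.27, and moved by less than the replicate spread. The replicate block, the robust variance model and the changed filters could not move it, since they leave the 10 differences as they were. Scan day as a block is the same comparison as leaving out wild-type array 3, the only array of its scan day, with a median of -0.39 in both. The count of genes called, 5 with the main settings, was 3 with median scaling, with no filter on dim probes and with a block for the slide number range, and 1 with the mean of all probes and with scan day as a block. It was 0 with no scaling, with slide as a fixed block, within the lower and the higher slide number range, with the replicate block, without the 3 arrays high in skeletal muscle genes and at an adjusted p of 0.01. At an unadjusted p under 0.05 limma gave 5, 2, 5, 2, 5 and 5 in the first 6 of these. With 1 array left out the count ran from 1 to 5. Of all genes, 2.89% were lower with the main settings, and 2.14% with the mean of all probes, where 1 of the 10 was called. The share was 0.966% with median scaling, 0.614% with no filter, 1.25% with the range block and 0.511% with scan day. It was 0.0521% with no scaling and within the lower range, and 0.0474% with the replicate block. The count of probes called, 5, was 3 with no filter and with the range block, 1 with scan day and 0 in the same 7 settings, and ran from 1 to 6 with 1 array left out. At an unadjusted p those same 6 settings gave 9, 2, 5, 3, 7 and 7 probes. Of all probes, 3.1% were lower with the main settings, 0.656% with no filter, 1.43% with the range block and 0.544% with scan day. That share was 0.0918% with no scaling, 0.038% within the lower range and 0.0411% with the replicate block. The replicate block called 26 genes over the whole array, and no array correlated best with the array of its own number. No scaling moved the median of all genes to -0.11, against 0.05.

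Signs turned for differences that had not passed the threshold. Fn1 gave 0.34 with slide as a fixed block, 0.33 within the higher range, 0.035 with array weights and 0.053 without the 3 muscle-high arrays, and -0.16 to 0.10 with 1 array left out. Dcn ran from -0.12 to 0.0017 with 1 array left out. Fn1 probe 2 gave 0.25 with the slide block and 0.23 within the higher range, and Sparc probe 2 gave 0.14 and 0.12. Bgn probe 2 gave -0.062 with quantile scaling, -0.050 with no scaling, -0.60 with the slide block, -0.050 within the higher range, -0.18 without the muscle-high arrays and -0.10 to 0.32 with 1 array left out. Postn probe 2 gave 0.043 with normexp, 0.36 within the higher range, 0.31 without the muscle-high arrays and -0.70 to 0.21 with 1 array left out. The causes were not tested. Signal over background leaves Tnc, Postn, Bgn and Vcan 1 probe each that is well above background on all 10 arrays.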
